A study of Homo sapiens with 6 samples.

Results

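The nuclear genes for the proteins of the mitochondrial ribosome were examined in LY2 cells after knockdown of CDK12. The members were taken by symbol, as every gene of the deposited table named MRPL or MRPS followed by a digit, which gave 78 of the 17939 genes, 49 MRPL and 29 MRPS. No hyphenated read-through symbol was present. LY2 is an estrogen receptor-positive (ER+) breast cancer line that is resistant to endocrine therapy. Cells were placed in serum-free medium without 4-hydroxytamoxifen before transfection with siRNA at 30 nmol/L, either targeting CDK12 (siCDK12) or without a target (siCtrl), and both groups were harvested after 48 hours. Total RNA of 3 libraries per group was sequenced, and the study describes them as biological replicates of this single line. The comparison asks which transcripts change when this kinase of transcription elongation is reduced.

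The mitochondrial ribosome, or mitoribosome, sits in the mitochondrial matrix and translates the few mRNAs of the mitochondrial genome, which encode core subunits of the respiratory chain and of ATP synthase. Its ribosomal RNAs come from the mitochondrial genome, while all of its proteins are encoded in the nucleus, made in the cytosol and imported. One part of these proteins descends from bacterial ribosomal proteins and another part is specific to mitochondria, and the MRPS and MRPL symbols stand in general for the small and the large subunit.

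CDK12 transcript was measured at 2.23, 2.83 and 2.44 FPKM (fragments scaled by transcript length and by the mapped total of the library) in siCDK12 replicates 1 to 3, against 11.2, 10.7 and 10.3 FPKM in siCtrl. The groups did not overlap, and CDK12 fell by 2.06 on the log2 scale (SE 0.085, limma adjusted p = 3.17e-07). The exact two-sided permutation p was 0.1, the smallest that 3 libraries against 3 allow. The sum of FPKM ranged from 448633 to 461038 between libraries. The study states a general amount of clean reads per sample, but the depth of each library is unknown because the table holds no counts. All 7 luminal epithelial markers were above the 1 FPKM minimum, between 45.7 FPKM for ESR1 and 1971 FPKM for KRT8. Of 12 stromal, endothelial and immune markers in the table, only COL1A1 reached that minimum, and among the others LUM, CDH5 and CD3E were at 0 in every library.

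Knockdown of CDK12 moved individual mitoribosomal transcripts by small amounts and in both directions. A gene was called when its limma adjusted p, taken over all genes tested, was under 0.05. Tests were run on genes that averaged 1 FPKM or more over the 6 libraries, and all 78 members were among them. Of them 10 were lower with siCDK12, or 12.8%, beside a background of 12.3% of the 11533 genes tested, and 7 were higher, or 8.97%, beside a background of 16.1%. In either direction 17 members were called, or 21.8%, beside 28.3% of all genes tested. The lowest member had a mean of 7.05 FPKM, and among the 8708 genes that averaged 5 FPKM or more the background was 30.6%. Counting members whose 3 siCDK12 values all lay on one side of the 3 siCtrl values gave 30, or 38.5%, beside 43.1% of all genes tested. In this fit, without further scaling of libraries, the share called in either direction was below the background. The share called lower was close to it. Their median log2 fold change was 0.012 beside 0.029 over all genes tested, and their median absolute change was 0.071 beside 0.105. None reached an absolute log2 fold change of 0.5, a size that 3.75% of all genes tested reached. Without siCDK12 replicate 3, 4 members were called higher in place of 7. Over all genes tested, 1193 were then called higher in place of 1853. When libraries were scaled by the median ratio, 16 of the 78 members were lower and 6 higher. The split over all 11533 genes tested turned from 1416 lower and 1853 higher to 1672 lower and 1377 higher. Under that scaling the share of members called lower was above that of all genes tested, and the share called higher was below it. The share of members called in either direction was then slightly above that of all genes tested, in place of below it.

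The summed level of the family was close to even between groups, on a scale that is relative to each library, so that less RNA of a gene per cell and fewer cells that carry it cannot be told apart. The 78 members added up to 4242, 4181 and 4255 FPKM in siCDK12 replicates 1 to 3, and to 4232, 4174 and 4379 FPKM in siCtrl replicates 1 to 3. The range of the siCDK12 sums lay inside the range of the siCtrl sums. Averaged over members, the deviation from each gene's own mean was 0.038 on the log2 scale in siCtrl replicate 3 and -0.031 in siCtrl replicate 2, so the 2 libraries at the extremes were both controls. Between replicates a member varied by a median of 3.56% (coefficient of variation) in siCDK12 and 4.28% in siCtrl, and the widest spread was 15.6%, for MRPS28 in siCtrl.

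Promoter sequence from RefSeq (GRCh38.p14) was found for 70 of the 78 members. Below are stretches just upstream of the start site for members described in the next paragraphs, MRPL53, MRPL20 and MRPL12, whose transcripts fell, and MRPL33 and MRPL30, whose transcripts rose. They are written 5′ to 3′ on the strand of the gene, without bases that lie in an exon of a protein-coding transcript, and capitals mark the core letters bound by ETS factors such as GABPA.
MRPL53, chr2:74472688-74472830, minus strand: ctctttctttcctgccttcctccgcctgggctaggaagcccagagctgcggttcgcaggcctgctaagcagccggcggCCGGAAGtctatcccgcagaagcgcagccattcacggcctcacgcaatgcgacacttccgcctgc
MRPL20, chr1:1407294-1407443, minus strand: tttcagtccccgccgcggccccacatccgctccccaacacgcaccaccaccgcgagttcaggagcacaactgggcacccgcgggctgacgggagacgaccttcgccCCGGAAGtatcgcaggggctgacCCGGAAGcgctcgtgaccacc
MRPL12, chr17:81703217-81703366, plus strand: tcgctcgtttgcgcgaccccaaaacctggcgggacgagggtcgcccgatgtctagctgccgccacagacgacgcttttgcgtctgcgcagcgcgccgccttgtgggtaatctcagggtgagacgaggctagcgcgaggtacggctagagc
MRPL33, chr2:27771569-27771716, plus strand: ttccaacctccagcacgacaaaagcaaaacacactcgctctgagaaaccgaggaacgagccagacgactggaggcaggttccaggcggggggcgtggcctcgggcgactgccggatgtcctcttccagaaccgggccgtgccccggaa
MRPL30, chr2:99181059-99181183, plus strand: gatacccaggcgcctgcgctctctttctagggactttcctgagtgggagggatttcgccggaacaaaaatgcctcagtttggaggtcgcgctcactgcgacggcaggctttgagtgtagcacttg
MRPL20 held a pair of ETS cores on its own strand, starting 44 and 21 bases before the start site, and MRPL53 held 1 on its own strand, starting 72 bases before it, and 1 on the other strand that began at the start site, outside the printed stretch. No core was marked in the MRPL12 and MRPL30 stretches. MRPL30 held 1 on the other strand farther upstream, starting 145 bases before the start site. In MRPL33 a core on the gene's strand began 8 bases before the start site and ran past the end of the printed stretch. The windows searched ran from 250 bases before the start to 50 after it.

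A short motif just downstream of the start site was shared by 4 of the members that fell. The letters AAGATGGC, the core recognized by the zinc finger factor YY1, stood 13 to 19 bases after the start of MRPS7, MRPL20, MRPL45 and MRPS27. They are shown with 10 bases on either side and with the core in capitals.
MRPS7, chr17:75261888-75261915, plus strand: gtggccagccAAGATGGCtgcccccgca
MRPL20, chr1:1407261-1407288, minus strand: cgacccgggcAAGATGGCagcggcgctg
MRPL45, chr17:38297171-38297198, plus strand: ttgcgggaacAAGATGGCagcccccata
MRPS27, chr5:72320207-72320234, minus strand: ggtacgctccAAGATGGCtgcctccata
Over both strands, AAGATGGC was present in 21 of the 70 member windows, or 30.0%, against 6.05% of the 9527 windows of tested genes and 3.14% of all 27305 windows. Of the 22 matches, 18 lay on the strand of the gene and 16 began between 5 and 40 bases after the start site. The ETS core CCGGAAG was in 42.9% of member windows, against 21.1% of tested genes and 10.9% of all windows. The core of NRF1, a factor known for nuclear genes of mitochondrial proteins, was searched as GCGCATGC and was in 8.57% of member windows, against 5.99% of tested genes and 3.35% of all windows. Among members called lower, 4 of 9 windows held the YY1 core, and among those called higher 0 of 6 did, while 17 of 55 windows of members not called held it. The ETS core was in 2 of 9, 3 of 6 and 25 of 55 windows of the same groups. A match is a string of letters, and binding was not measured here. AAGATGGC also holds ATG, the letters of a start codon, and its place relative to the coding start was not examined.

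Among the falls, MRPL53 (gene ID 116540), a large-subunit protein specific to mitochondria, moved most. It was at 73.6, 73.4 and 68.0 FPKM in siCDK12 replicates 1 to 3 and at 85.5, 89.7 and 97.5 FPKM in siCtrl. The groups did not overlap, and the transcript changed by -0.34 on the log2 scale (SE 0.051, limma adjusted p = 0.000723), a drop of the mean from 90.9 ± 6.10 to 71.7 ± 3.18 FPKM (SD, n = 3). MRPL53 is a short gene on chromosome 2, with 699 bases from 74471982 to 74472680.

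MRPS7 (gene ID 51081), the counterpart of a bacterial protein that binds ribosomal RNA in the head of the small subunit, was at 60.7, 57.8 and 57.9 FPKM with siCDK12 and at 73.1, 70.0 and 72.9 FPKM with siCtrl. The change came to -0.29 on the log2 scale (SE 0.037, limma adjusted p = 0.000249), the smallest p among the members. It lies on chromosome 17 at 75261879 to 75266376, where its canonical exons share 149 bases with MIF4GD on the other strand. The sources used here do not say whether counting used strand, and reads of the shared stretch cannot be assigned to one gene. MRPL15, a protein of the large subunit core, was at 18.6, 19.1 and 21.1 FPKM with siCDK12 and at 24.0, 22.3 and 25.04 FPKM with siCtrl. It changed by -0.28 on the log2 scale (SE 0.058, limma adjusted p = 0.00516), and siCDK12 replicate 3 came nearest to the controls.

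MRPL20 (gene ID 55052, chromosome 1 at 1401909 to 1407293), whose bacterial counterpart joins the large subunit early in assembly, was at 83.2, 80.6 and 79.1 FPKM with siCDK12 and at 92.2, 99.9 and 94.6 FPKM with siCtrl. The change was -0.24 on the log2 scale (SE 0.039, limma adjusted p = 0.00135), with no overlap. MRPL12 (gene ID 6182, chromosome 17 at 81703367 to 81707517), the protein of the flexible stalk that contacts translation factors, was at 118, 114 and 116 FPKM with siCDK12 and at 137, 133 and 133 FPKM with siCtrl. It was the most abundant member that fell, by 0.21 on the log2 scale (SE 0.033, limma adjusted p = 0.000899). MRPL10, the protein that anchors this stalk, had a log2 fold change of -0.04 (limma adjusted p = 0.6). MRPL17, which lies near the exit of the nascent peptide in the large subunit, was at 30.3, 29.2 and 27.7 FPKM with siCDK12 and at 33.3, 33.9 and 33.4 FPKM with siCtrl, a log2 fold change of -0.21 (SE 0.042, limma adjusted p = 0.00448).

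Each of these 6 falls kept its call in all 16 alternative settings tried. The remaining 4 falls were smaller. MRPL57 and MRPL24, both of the large subunit, each changed by -0.19 on the log2 scale, with limma adjusted p of 0.00539 and 0.00669, and both kept their calls in every alternative. MRPL45, which lines the exit of the large subunit at the inner membrane, changed by -0.16 (limma adjusted p = 0.0291). MRPS27, a small-subunit protein with pentatricopeptide repeats, changed by -0.13 (limma adjusted p = 0.0462). These last 2 calls were lost in 6 and 7 of the 16 alternatives. For MRPL45 these included leaving out siCDK12 replicate 1 or 2 or siCtrl replicate 1 or 3 (limma adjusted p from 0.0686 to 0.10), and for MRPS27 leaving out siCDK12 replicate 2 or 3 or siCtrl replicate 1 or 2 (from 0.0778 to 0.141). MRPL57 and MRPL45 have 5 and 2 named pseudogenes in GENCODE. MRPL53, MRPL15 and MRPL20 have 1 each, as does MRPL30 among the rises below. Reads could be split between these genes and their pseudogenes.

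**Figure D1:**
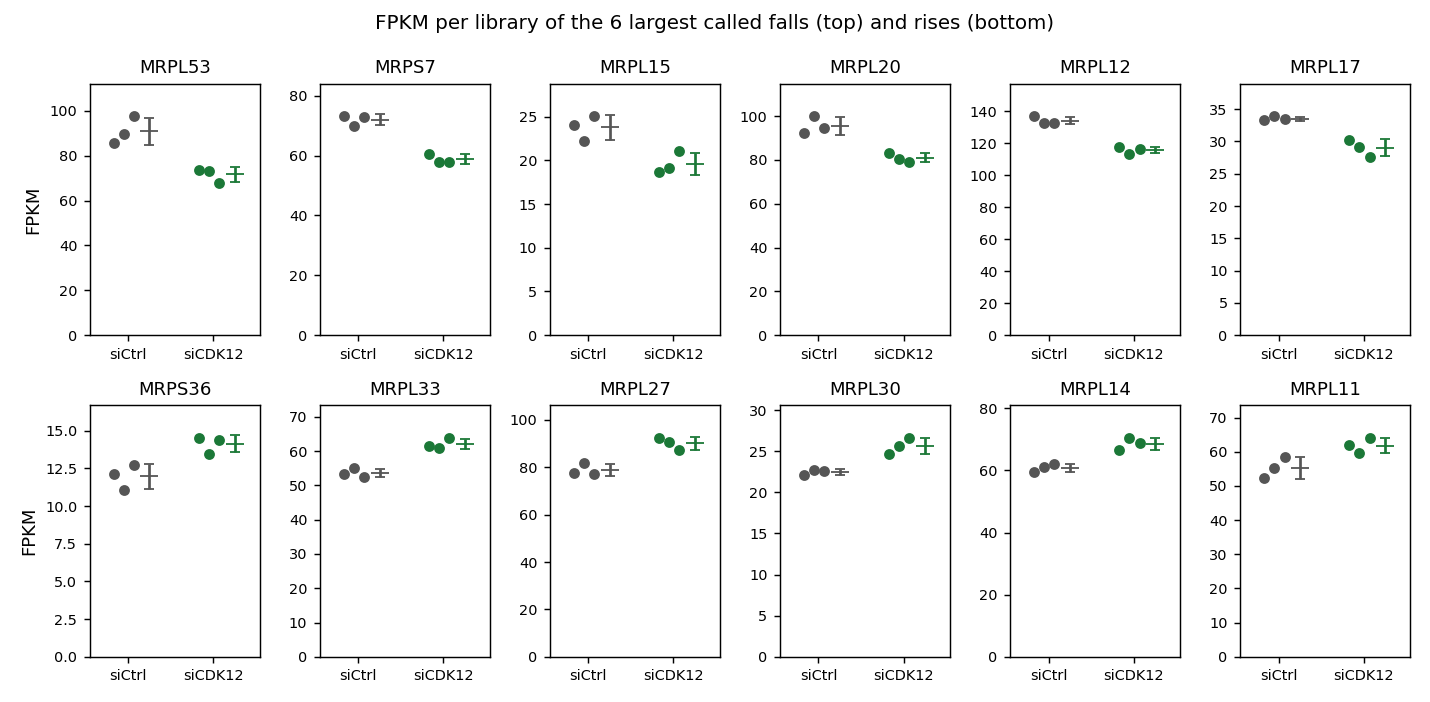
FPKM in each library (points, replicates 1 to 3 from left to right) for the 6 called members with the largest falls (top row) and the 6 with the largest rises (bottom row), with the mean and SD of 3 libraries beside them; every axis starts at 0. In each of the 12 panels the siCDK12 and siCtrl points do not overlap, and the changes are small against the level, from 90.9 to 71.7 FPKM for MRPL53 and from 53.6 to 62.0 FPKM for MRPL33.

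Among the rises, the largest belonged to a gene that carries an MRPS symbol but is listed in RefSeq as KGD4. MRPS36 was at 14.5, 13.5 and 14.4 FPKM with siCDK12 and at 12.1, 11.1 and 12.7 FPKM with siCtrl. Its protein is now known as a part of the 2-oxoglutarate dehydrogenase complex of the citric acid cycle and is absent from structures of the human mitoribosome. It changed by 0.24 on the log2 scale (SE 0.059, limma adjusted p = 0.0130), and it missed the threshold without siCDK12 replicate 3 (limma adjusted p = 0.0510). It has 5 named pseudogenes in GENCODE.

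The other 6 rises were all large-subunit proteins with bacterial counterparts, 20% of the 30 in that class, beside 16.1% of all genes tested. MRPL33 (gene ID 9553, chromosome 2 at 27771719 to 27779733) was at 61.4, 60.8 and 63.7 FPKM with siCDK12 and at 53.3, 54.9 and 52.5 FPKM with siCtrl, a log2 fold change of 0.21 (SE 0.036, limma adjusted p = 0.00175). MRPL27 (gene ID 51264, chromosome 17 at 50367867 to 50373184), whose bacterial counterpart reaches toward the peptidyl transferase center, was at 92.3, 90.7 and 87.3 FPKM with siCDK12 and at 77.8, 81.9 and 77.1 FPKM with siCtrl, a change of 0.19 (SE 0.038, limma adjusted p = 0.00389). In both, every siCDK12 library was above every siCtrl library.

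MRPL30 was at 24.7, 25.7 and 26.6 FPKM with siCDK12 and at 22.1, 22.7 and 22.6 FPKM with siCtrl, a log2 fold change of 0.19 (SE 0.042, limma adjusted p = 0.00716). MRPL14, which sits on the face of the large subunit that meets the small one, was at 66.5, 70.3 and 68.8 FPKM with siCDK12 and at 59.5, 61.0 and 62.1 FPKM with siCtrl, a change of 0.17 (SE 0.036, limma adjusted p = 0.00580). These rises, like those of MRPL33 and MRPL27, kept their calls in all 16 alternatives. MRPL11, at the base of the stalk, was at 61.9, 59.6 and 64.0 FPKM with siCDK12 and at 52.2, 55.1 and 58.4 FPKM with siCtrl. It changed by 0.16 on the log2 scale (SE 0.046, limma adjusted p = 0.0233), and the call was lost in 6 of 16 alternatives. MRPL23, at the exit of the peptide tunnel, changed by 0.12 (limma adjusted p = 0.0409) and lost its call in 7. Both missed the threshold when siCDK12 replicate 1 or 3 or siCtrl replicate 1 or 2 was left out, MRPL11 with limma adjusted p from 0.0595 to 0.0926 and MRPL23 from 0.0960 to 0.141.

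Of the 61 members that were not called, the most abundant gave values close to even. MRPL41 was the most abundant of all 78, at 303.5, 301 and 301.6 FPKM with siCDK12 and at 297, 294 and 317 FPKM with siCtrl, a log2 fold change of -0.0028 (SE 0.036). It turned to 0.0070 under quantile normalization and to 0.031 without siCtrl replicate 3. MRPS34 was at 197, 199 and 208 FPKM with siCDK12 and at 213, 211 and 218 FPKM with siCtrl, without overlap, a change of -0.09 (SE 0.034, limma adjusted p = 0.0722). MRPL28 was at 149.7, 142 and 147 FPKM with siCDK12 and at 142, 137 and 139 FPKM with siCtrl, also without overlap, a change of 0.07 (SE 0.034, limma adjusted p = 0.138). MRPS30, which despite its symbol is a protein of the large subunit, was at 43.0, 43.0 and 42.4 FPKM with siCDK12 and at 46.4, 44.1 and 52.6 FPKM with siCtrl. Its change of -0.15 (SE 0.057) had a limma adjusted p of 0.0677, and siCtrl replicate 3 stood above the other controls. Without siCtrl replicate 2 the change of MRPS30 was -0.21 (limma adjusted p = 0.0246), and without siCtrl replicate 3 it was -0.08 (limma adjusted p = 0.195). Levels over the family ran from 7.05 FPKM for MRPS14 to 302.4 FPKM for MRPL41, with a median of 40.3 FPKM.

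**Figure D2:**
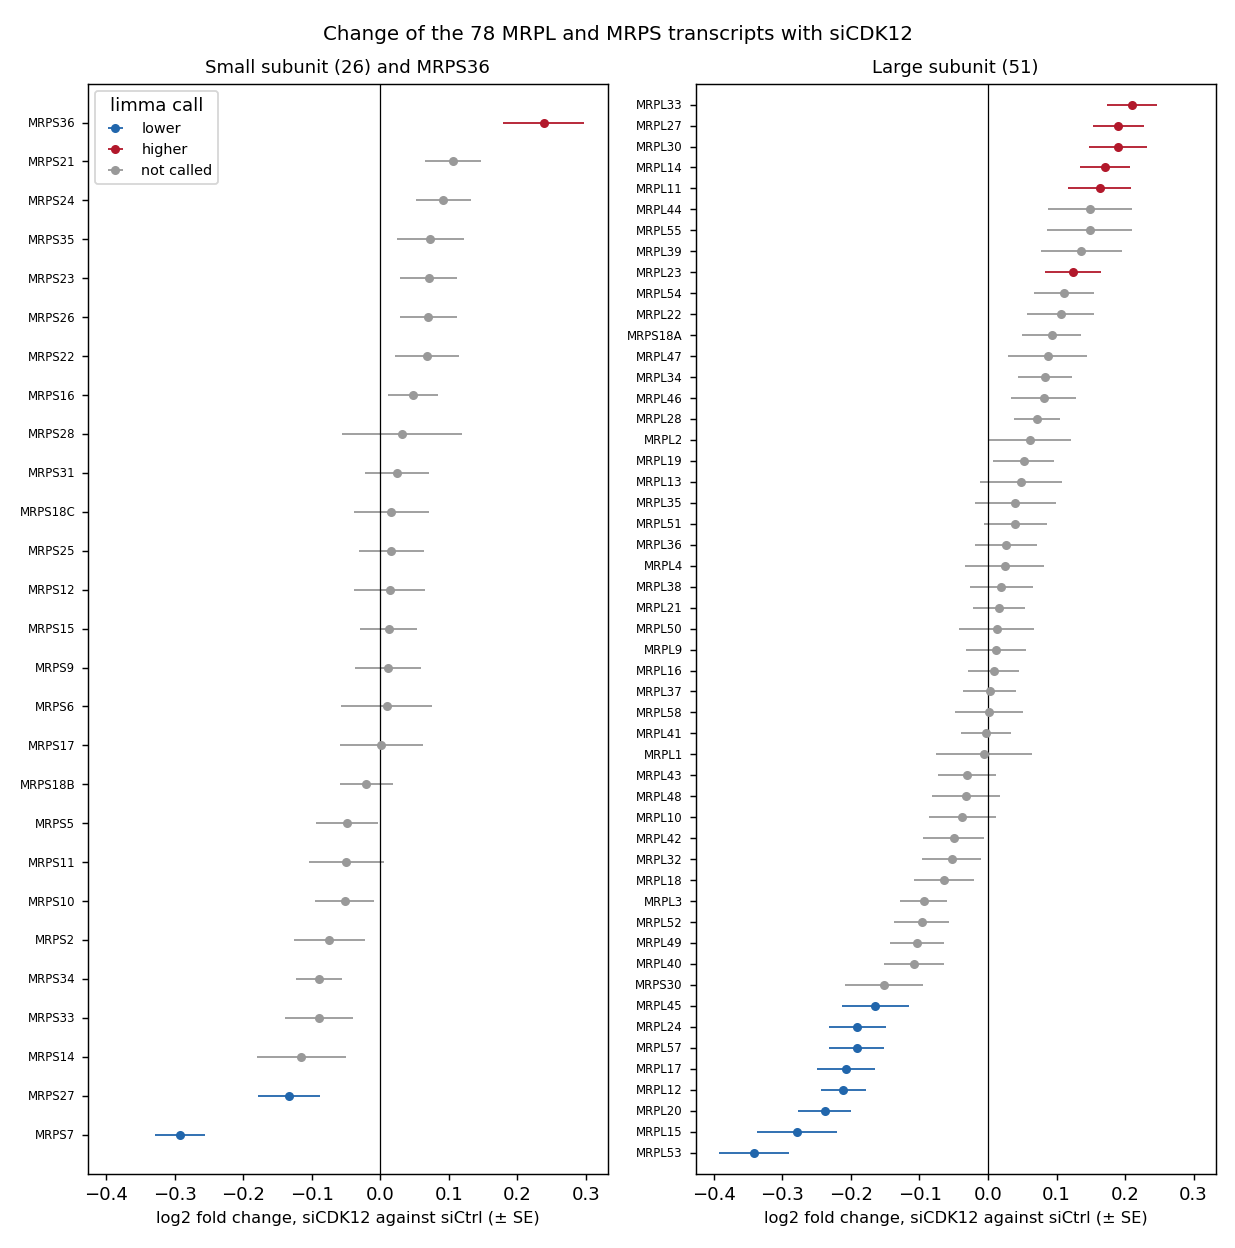
Log2 fold change of siCDK12 against siCtrl for all 78 members (points, bars ± SE of the fit), sorted by size, with the 26 small-subunit proteins and MRPS36 on the left and the 51 large-subunit proteins on the right; color gives the limma call. The 2 called small-subunit members, MRPS7 and MRPS27, are at the bottom of the left panel, and the large subunit holds 8 called falls and 6 called rises between -0.34 and 0.21.

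The calls were also counted by subunit. MRPS30 and MRPS18A were counted with the large subunit, where their proteins are found, and MRPS36 with neither. Of 26 small-subunit members 2 were lower and 0 higher, or 7.69% called beside 28.3% of all genes tested. Of the 26, 5 had an unadjusted limma p under 0.05, a cut passed by 4625 of the 11533 genes tested. Without siCDK12 replicate 2 or 3 or siCtrl replicate 2, 1 small-subunit member was lower. Leaving out siCDK12 replicate 1 gave 1 small-subunit member called higher, and leaving out siCtrl replicate 3 gave 2. Of 51 large-subunit members 8 were lower and 6 higher, or 27.5%, close to the background of 28.3%. Median-ratio scaling gave 13 large-subunit members lower and 5 higher, with 1672 lower and 1377 higher over all genes tested. Under that scaling the share of large-subunit members called was above that of all genes tested. Median log2 fold changes were 0.012 in the small and 0.013 in the large subunit, and median absolute changes were 0.051 and 0.087. The difference between subunits was not tested. Within the large subunit, 30 proteins with bacterial counterparts gave 5 falls and 6 rises, or 16.7% and 20%. The 20 proteins specific to mitochondria gave 3 falls, MRPL53, MRPL57 and MRPL45, and 0 rises, or 15% and 0%. Of these 20, 10 had an unadjusted limma p under 0.05 in either direction, beside the 4625 of 11533 over all genes tested. Over all genes tested, 12.3% were lower and 16.1% higher, and the classes were not tested against each other. Inherited variants in MRPS2, MRPS7, MRPS14, MRPS16, MRPS22, MRPS23, MRPS25, MRPS28, MRPS34, MRPL3, MRPL10, MRPL12 and MRPL44 are listed here as causes of mitochondrial disease. Of these 13 members MRPS7 and MRPL12 were lower, or 15.4% beside the background of 12.3%, and 0 were higher. The list was written from general knowledge and may be incomplete, and this share depends on it.

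The table also held 5 mitoribosomal proteins that carry other symbols. DAP3, PTCD3, AURKAIP1, CHCHD1 and GADD45GIP1 had log2 fold changes between -0.03 and 0.11, and limma called 0 of the 5. Over all genes tested, 4625 of 11533 had an unadjusted limma p under 0.05, and of the 5 there was 1. That one was GADD45GIP1, at 125, 111 and 120.2 FPKM with siCDK12 and 112, 111 and 108 FPKM with siCtrl (limma adjusted p = 0.0923).

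Many mitoribosomal genes share a start region with a gene on the other strand. In the GENCODE v44 annotation, 24 pairs joined a member to a tested protein-coding neighbor whose canonical start lay upstream on the opposite strand, 45 to 990 bases away. In 3 of these pairs both transcripts were called, and in each of the 3 they moved the same way. MRPL57 and SKA3, a spindle and kinetochore protein, start 106 bases apart and both fell, SKA3 by 0.32 on the log2 scale (limma adjusted p = 0.000273). MRPS27 and PTCD2 start 133 bases apart and both fell, PTCD2 from 3.83 ± 0.268 to 2.85 ± 0.172 FPKM (SD, n = 3). MRPL14 and TMEM63B start 102 bases apart and both rose, TMEM63B from 22.4 ± 0.870 to 26.9 ± 0.630 FPKM.

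Some of the other pairs had a call on a single side, and in the rest neither transcript was called. MRPL27 rose while EME1, an endonuclease subunit whose start is 45 bases away, gave a log2 fold change of -0.06 (limma adjusted p = 0.546). MRPS7 fell while GGA3, 273 bases away, gave 0.0098 (limma adjusted p = 0.897). MRPL30 rose, and MITD1, 126 bases away, changed by 0.21 with a limma adjusted p of 0.0750. In 5 pairs only the neighbor was called. The largest of these was PPP1R10, a regulator of protein phosphatase and transcription termination, which fell from 45.5 ± 1.75 to 32.1 ± 0.827 FPKM while MRPS18B changed by -0.02. Over the 24 pairs, 8 neighbors were called, or 33.3% beside 28.3% of all genes tested, and 14 pairs had the same sign. No test of these pairs as a group was made. One pair joins both subunits, since MRPL46 and MRPS11 start 320 bases apart, and neither was called.

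**Figure D3:**
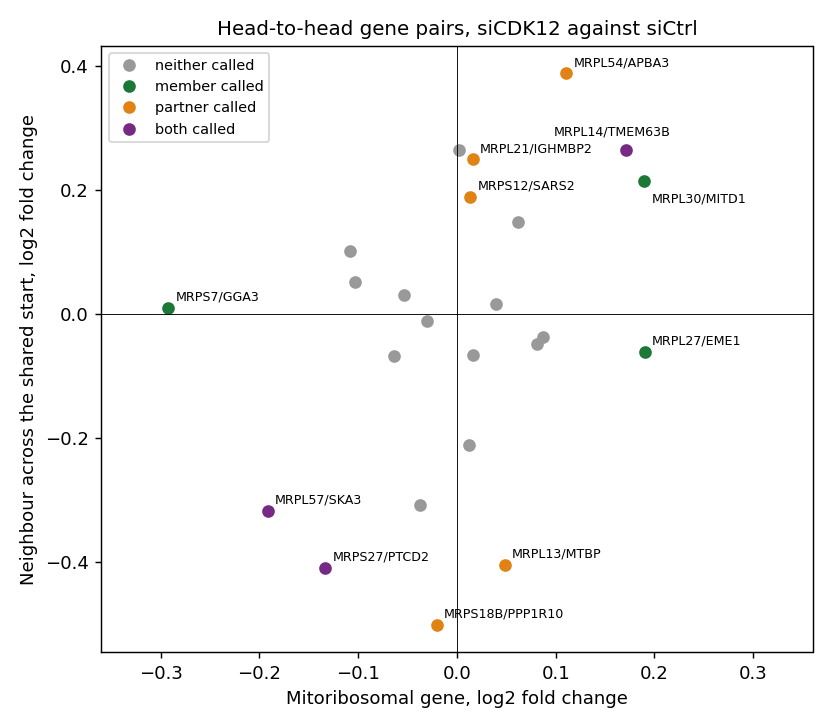
Log2 fold change (siCDK12 against siCtrl) of 24 mitoribosomal genes (x axis) and of the neighbor that starts upstream on the opposite strand (y axis); each point is 1 pair, colored by which of the pair limma called. The 3 pairs with both called, MRPL14 with TMEM63B, MRPL57 with SKA3 and MRPS27 with PTCD2, lie in the quadrants of equal sign, and called neighbors such as PPP1R10 stand beside members near 0.

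Other ribosomal and respiratory transcripts give a scale for these changes. Of 77 cytosolic ribosomal protein genes, limma called 0, beside 28.3% of all genes tested. Of the 77, 5 had an unadjusted limma p under 0.05, beside 4625 of the 11533 genes tested. Their log2 fold changes lay between -0.10 and 0.12 around a median of -0.0067. Their groups did not overlap in 6.49% of genes, beside 38.5% for the mitoribosomal members and 43.1% of all genes tested. The cytosolic transcripts were also more abundant, with a median of 679.9 FPKM. Another 37 genes were taken by NDUF symbols, which are named for respiratory complex I, without a check of each protein. Of these, 11 were higher (29.7% beside 16.1% of all genes tested) and 1 lower (2.7% beside 12.3%), with a median log2 fold change of 0.10. The members taken by symbol ranged from -0.34 to 0.24, the value of MRPS36, which is not on the mitoribosome. The largest rise among the others was 0.21, for MRPL33. These sets were not tested against each other.

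**Figure D4:**
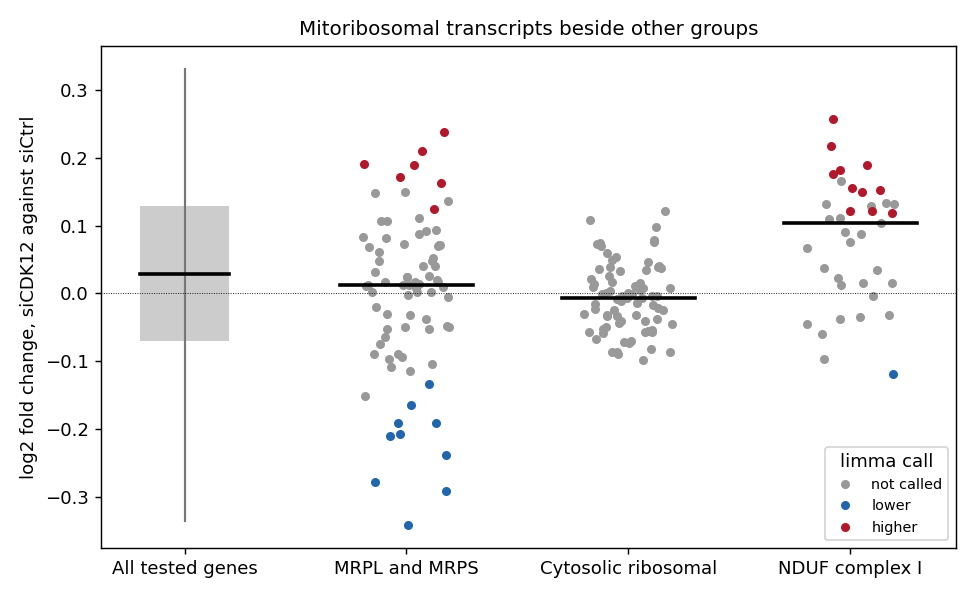
Log2 fold change (siCDK12 against siCtrl) of the 78 members, 77 cytosolic ribosomal protein genes and 37 genes with NDUF symbols (points, colored by limma call), beside all 11533 genes tested. For all genes tested the box runs from percentile 25 to 75 and the line from percentile 5 to 95, and black bars are medians. Member points reach from -0.34 to 0.24, the value of MRPS36, with calls on both sides. Cytosolic points stay between -0.10 and 0.12 with 0 calls, and NDUF points center on 0.10.

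The factors that build and run the mitoribosome were counted in the same way. Taken with the 5 proteins under other symbols, 90 genes were tested, of which 9 were lower and 16 higher, or 27.8% called beside the background of 28.3%, with a median log2 fold change of 0.022. Median-ratio scaling gave 12 lower and 11 higher. Lower calls dropped to 5 without siCDK12 replicate 2 or 3, and higher calls to 9 without siCDK12 replicate 3 and to 10 without siCtrl replicate 1 or 2. Over all genes tested, lower calls dropped from 1416 to 1128 and 1048 without siCDK12 replicates 2 and 3. Over the same genes, higher calls dropped from 1853 to 1193 without siCDK12 replicate 3. Without siCtrl replicates 1 and 2 they came to 1435 and 1370. Among 25 assembly factors, 2 were lower and 4 higher, shares of 8% and 16% beside 12.3% and 16.1% of all genes tested. RCC1L, which takes part in ribosome assembly, changed by 0.16 (limma adjusted p = 0.0131), MTG2, a GTPase of the large subunit, by 0.19 (limma adjusted p = 0.0293), and MALSU1, which docks on MRPL14 during assembly, by 0.14 (limma adjusted p = 0.0323). MTERF4, which recruits the rRNA methyltransferase NSUN4, changed by -0.16 (limma adjusted p = 0.0174). These calls rested in part on single libraries. RCC1L missed the threshold without siCtrl replicate 2 (limma adjusted p = 0.0522) and MTERF4 without siCDK12 replicate 2 (0.0669). MTG2 missed it without siCDK12 replicate 2 or 3 or siCtrl replicate 1 or 2 (0.0562 to 0.102), and MALSU1 without siCDK12 replicate 1 or 3 or siCtrl replicate 1 or 3 (0.0617 to 0.116).

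The translation factors held the largest fall among these lists, that of MTRF1. Of 16 tested, 4 were lower and 3 higher, shares of 25% and 18.8% beside 12.3% and 16.1% of all genes tested. MTRF1L, the release factor that ends most mitochondrial proteins, was at 10.4, 10.5 and 10.1 FPKM with siCDK12 and at 13.3, 12.8 and 13.0 FPKM with siCtrl, a log2 fold change of -0.33 (SE 0.047, limma adjusted p = 0.000551). Its paralog MTRF1 was at 3.36, 3.12 and 3.26 FPKM with siCDK12 and at 4.70, 4.53 and 4.31 FPKM with siCtrl, a change of -0.46 (SE 0.073, limma adjusted p = 0.00101). MRRF, the ribosome recycling factor, changed by -0.19 (limma adjusted p = 0.0169), and missed the threshold without siCDK12 replicate 3 (0.0568) or siCtrl replicate 3 (0.0551). TSFM, the exchange factor for the elongation factor TUFM, rose from 27.7 ± 0.815 to 32.5 ± 1.44 FPKM (SD, n = 3). In these 4 genes the groups did not overlap.

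Of 17 mitochondrial aminoacyl-tRNA synthetases, which charge the tRNAs used by the mitoribosome, 5 were higher and 1 lower, shares of 29.4% and 5.88% beside 16.1% and 12.3% of all genes tested. VARS2 and TARS2 changed by 0.31 and 0.29 on the log2 scale, with limma adjusted p of 0.000535 and 0.000556. YARS2 changed by 0.30 (limma adjusted p = 0.00559) and SARS2, which starts 181 bases from MRPS12, by 0.19 (limma adjusted p = 0.0139), while MRPS12 itself changed by 0.01. Among 17 tested genes of mitochondrial transcription and RNA processing, TFAM, which packages and transcribes mitochondrial DNA, changed by 0.22 (limma adjusted p = 0.0138) and the RNA-degrading PNPT1 by -0.29 (limma adjusted p = 0.00170). SARS2 without siCDK12 replicate 1 and TFAM without siCtrl replicate 2 both had a limma adjusted p of 0.0531.

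Of 10 tested regulators of mitochondrial biogenesis, 3 were higher and 1 lower, shares of 30% and 10% beside 16.1% and 12.3% of all genes tested. PPARGC1A, the coactivator PGC-1α, was at 1.5, 1.58 and 1.44 FPKM with siCDK12 and at 0.76, 0.80 and 0.92 FPKM with siCtrl, a log2 fold change of 0.80 (SE 0.13, limma adjusted p = 0.00148). Its siCtrl mean of 0.827 FPKM is under the minimum for testing, which it passed through the siCDK12 libraries, and the change was 0.46 with a pseudocount of 1 in place of 0.1. ESRRA, its nuclear receptor partner, changed by 0.18 (limma adjusted p = 0.00512). The GABP subunits that pair with GABPA changed in opposite directions, GABPB1 by 0.14 (limma adjusted p = 0.0183) and GABPB2 by -0.40 (limma adjusted p = 0.00512). GABPB1 missed the threshold without siCDK12 replicate 3 (0.0731) or siCtrl replicate 2 (0.0717). GABPA, YY1 and NRF1 themselves, whose core letters were searched above, changed by -0.06, -0.03 and -0.08, with limma adjusted p of 0.600, 0.594 and 0.319.

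Fold change was only weakly related to the size and level of the members. Over the 78 members, the log2 fold change had a Spearman rho of 0.17 with the RefSeq gene span and of -0.10 with the mean level, as descriptions across genes, which are not replicates. The members are short genes, with a median span of 8643 bases beside 29791 over the tested genes with a RefSeq span. The median span was 4942 bases in the 10 members that fell and 12399 in the 7 that rose, with wide overlap, from 699 to 100838 and from 3774 to 67613 bases. The 12399 is the span of MRPS36, which is not on the mitoribosome. The 67613 is that of MRPL23, whose canonical transcript in GENCODE spans 9269 bases. Chromosome 17 holds 8 members, of which MRPS7, MRPL12 and MRPL45 fell and MRPL27 rose. MRPL45 lies 1.14 megabases before CDK12 on that chromosome.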

How the data were processed

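Total RNA of 6 LY2 libraries, 3 with siCDK12 and 3 with siCtrl by the sample labels, was sequenced as paired ends on a BGISEQ-500. The submitters' processing notes name Bowtie2, RSEM, DESeq2 and GRCh38. The deposited values are FPKM, fragments scaled by the authors for transcript length and library total. The depth of each library is therefore unknown and a count model could not be fitted. No per-library column was left unused (0).

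The members, gene lists and motifs were chosen with earlier results of these data known. After genes averaging under 1 FPKM were left out, log2(FPKM + 0.1) was fitted by limma 3.58.1 (R 4.3.3) with a variance trend, two-sided, with Benjamini-Hochberg adjustment over all 11533 genes tested, and called at an adjusted p under 0.05. Fold changes are on this scale, which understates those of low genes. The steps were tested on simulated data. Whether replicates came from separate cultures rests on the study's description, and p-values measure the spread between these libraries.

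Every called member is named. The 6 largest falls and rises are given per library, as are the 3 most abundant members not called and those not called whose groups did not overlap at an absolute log2 fold change of at least 0.15. Up to 4 called genes per other list are named, by smallest p. MRPL10 and the genes named as neighbors, and GABPA, YY1 and NRF1, were chosen after their values were seen, as was GADD45GIP1. The value of 1 marker gene is not reported here.

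Positions and promoters came from RefSeq (GRCh38.p14), matched by gene ID for all 78 members. Exons, starts and pseudogenes came from GENCODE v44. Motif letters were searched on both strands in 300-base windows, 1 per gene. Alternatives were pseudocounts of 1 and 0.01, no filter, a mean of at least 5 FPKM, equal sum, median-ratio and quantile scaling, no variance trend, a robust variance, a replicate block and leaving out each library. Figures used matplotlib 3.10.9 in Python 3.11.15.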

Additional observations from a re-analysis of the deposited data

How the results depend on the processing

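All 17 called members kept their direction in the 16 alternatives, and 12 of them kept their call in every one. MRPL45, MRPS27, MRPL11, MRPL23 and MRPS36 lost the call in at least 1, with adjusted p up to 0.10, 0.141, 0.0926, 0.141 and 0.0510. The count of members called lower was 10 with siCDK12 and ran from 8 to 10 as each library was left out, and that of members called higher was 7 and ran from 4 to 9. Over all genes tested, 1416 lower and 1853 higher became 1048 to 1203 lower and 1193 to 1607 higher. Median-ratio scaling gave 16 lower and 6 higher, with MRPL3, MRPL40, MRPL49, MRPL52, MRPS30 and MRPS34 added to the falls and MRPL23 lost. Over all genes tested it gave 1672 lower and 1377 higher. The share of members called in either direction was then slightly above that of all genes tested, in place of below it. The cause was not tested. No filter on low values and no variance trend each gave 8 lower and 5 higher. For the other mitochondrial translation genes, 9 lower and 16 higher became 5 to 11 lower and 9 to 14 higher as each library was left out, and 12 lower and 11 higher under median-ratio scaling. MRPL41, not called, changed sign under quantile normalization (0.0070) and without siCtrl replicate 3 (0.031), and the range over the libraries left out was -0.023 to 0.031. CDK12 stayed lower and called in every alternative. Deviations from the group means gave no sign of pairing by replicate number, with correlations of -0.0029, 0.020 and -0.028 for same-numbered libraries. Such values cannot show whether same-numbered libraries were prepared together. The fit with a replicate block called the same 17 members, 10 lower and 7 higher. Under the block 6 of the other mitochondrial translation genes were lower and 11 higher, and MTG2 and MALSU1 missed the threshold (adjusted p = 0.0515 and 0.0642). The depth of each library is unknown from FPKM, and 3 libraries per group give few degrees of freedom. A missed threshold does not show that a member did not change.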
